A study of Mus musculus with 10 samples.

Results

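The 10 genes described here encode the core of the machinery that adds, copies, protects and removes DNA methylation in male mouse embryonic stem cells (mESCs). They were taken by name from the deposited expression table, where each of the 10 names matched 1 of 25965 features, and the set itself was chosen with earlier results of these data known. RNA was sequenced in 10 libraries in 5 groups of 2, all from male C57/Bl6 mESCs that the study derived as 2 independent lines under its own method and grew in 2i medium, which holds mESCs in the naive state. Each line was split at passage 0 (p0) and carried to passage 10 (p10) and passage 20 (p20) under Keniry2022 conditions, in suspension with daily passaging, or under Mulas2019 conditions, on gelatin with less frequent passaging. The labels name these methods New or Off and Old or On. The labels give no engineered change and no added agent that differs between groups, so the groups differ by culture method and passage, and all of them began under Keniry2022 conditions. A group therefore holds 1 library of each of 2 lines, the 4 libraries of a method are those 2 lines at p10 and p20, and p-values measure the spread between these libraries. p20 Keniry2022 and p10 Mulas2019 cells had spent similar numbers of days in culture.

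Levels are log2 RPKM, that is, reads scaled by feature length and library size on a log2 scale, so that 1 unit is a factor of 2. Library totals, worked out from the table itself, ran from 24053996 to 30236823 reads. The p0 libraries differed from each other more than those of any other group (SD over features of the replicate difference 0.611, against 0.23 to 0.265 in the other 4 groups), and 1 library of every group held 13 to 132 reads of Y-linked genes where the other held 4578 to 8140. Loss of the Y chromosome in a line while it was being derived is described by the study. The low library was replicate 1 except in p20 Keniry2022, where replicate 1 held 6659 such reads and replicate 2 held 48. All 10 markers of naive mESCs were above 0 in every library, and their summed level was 11.7 to 12.24 in p0, 11.44 to 11.56 under Keniry2022 and 11.33 to 11.4 under Mulas2019. Of these markers Pou5f1 (8.64 to 8.85 against 8.29 to 8.37), Nanog (8.78 to 9.02 against 8.67 to 8.73), Zfp42 (5.84 to 5.95 against 5.55 to 5.63) and Klf2 (6.49 to 6.62 against 6.29 to 6.48) were above in all Keniry2022 libraries, and Klf4 (5.18 to 5.46 against 5.57 to 5.94) was below. The summed level of 6 primed epiblast markers was 2.94 to 3.07 in p0, 3.23 to 3.66 under Keniry2022 and 3.40 to 3.78 under Mulas2019, with Lef1 the only marker above 0 in every library. Primitive endoderm markers summed to 0.71 to 1.37 with none of the 6 above 0 in every library, and fibroblast markers to -1.45 to 0.07 with Col1a2 and Col3a1 at no more than 1 read. The 6 trophoblast markers summed to 4.37 to 4.60 in p0, 4.45 to 4.71 under Keniry2022 and 4.75 to 5.13 under Mulas2019, led by Tfap2c (4.2 to 5.01), the only 1 above 0 in every library and also expressed in mESCs, with Hand1 and Elf5 at no more than 8 reads. Krt18 (-0.44 to 0.31 against 0.89 to 1.08) and Krt7 (-1.97 to -1.4 against -0.91 to -0.43) were below in all Keniry2022 libraries. The other trophoblast markers overlapped between the methods. Over all features tested between the methods, 46.5% did not overlap, 23.1% above and 23.4% below under Keniry2022. Dppa5a, the highest naive marker, overlapped (10.33 to 10.44 under Keniry2022, 10.23 to 10.35 under Mulas2019). The naive and trophoblast sums did not overlap between the methods, though the naive sums nearly met (11.44 against 11.4). Their part in the differences below was not tested.

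In mammals DNA methylation falls mainly on cytosines followed by guanine (CpG sites). Dnmt3a and Dnmt3b, helped by the inactive relative Dnmt3l, methylate new sites, while Dnmt1, brought to replicated DNA by Uhrf1, copies the pattern to the daughter strand. Tet1 and Tet2 oxidise methylated cytosine, Tdg cuts out the oxidised base, and Zfp57 with its partner Trim28 (KAP1) holds methylation at imprinted regions through DNA replication. Naive mESCs in 2i medium are known for low global methylation, which is why the levels of these genes are of interest when a culture method is changed.

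The largest differences between the culture methods were those of Dnmt3b and Dnmt3l, so the sequence at the transcription starts of the Dnmt3 genes is shown first. RefSeq lists 19 start sites for the 10 genes on GRCm38.p6, and each window covers 250 bases before the start and 50 after it. Capitals mark the GC box (GGGCGG on either strand, CCGCCC as read here), a motif bound by SP family factors. The windows are Dnmt3b at chr2:153649199-153649498, the internal start of Dnmt3a at chr12:3891494-3891793, the last of its 3 listed starts, and the middle of the 3 listed starts of Dnmt3l at chr10:78049592-78049891, all on the plus strand:
Dnmt3b: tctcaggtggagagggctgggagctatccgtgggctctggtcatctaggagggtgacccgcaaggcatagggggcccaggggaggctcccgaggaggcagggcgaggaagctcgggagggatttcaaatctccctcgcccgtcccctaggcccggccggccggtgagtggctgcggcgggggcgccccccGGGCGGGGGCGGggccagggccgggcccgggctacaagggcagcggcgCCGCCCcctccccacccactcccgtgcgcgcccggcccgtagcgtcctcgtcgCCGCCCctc
Dnmt3a: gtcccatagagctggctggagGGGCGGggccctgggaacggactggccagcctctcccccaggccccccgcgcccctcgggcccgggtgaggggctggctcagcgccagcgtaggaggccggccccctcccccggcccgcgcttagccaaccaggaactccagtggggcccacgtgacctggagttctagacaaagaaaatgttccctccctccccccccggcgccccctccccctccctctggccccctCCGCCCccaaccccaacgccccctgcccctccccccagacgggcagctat
Dnmt3l: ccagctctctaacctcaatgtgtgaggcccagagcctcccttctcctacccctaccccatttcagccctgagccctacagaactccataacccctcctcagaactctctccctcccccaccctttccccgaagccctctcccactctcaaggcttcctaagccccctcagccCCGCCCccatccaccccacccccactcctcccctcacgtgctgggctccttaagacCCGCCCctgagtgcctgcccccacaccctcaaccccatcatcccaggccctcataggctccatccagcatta

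These 3 windows differ widely in CpG content. The Dnmt3b window holds 30 CpG sites and 4 GC boxes, more CpG sites than 88.3% of the 32851 promoter windows in the RefSeq table. The Dnmt3a window holds 18 CpG sites and 2 GC boxes. The first 2 listed starts of Dnmt3a, not shown, hold 46 and 47 CpG sites and 6 and 7 GC boxes, in windows that overlap each other. The Dnmt3l window holds 4 CpG sites, fewer than the median of 7 over all windows, and 2 GC boxes. A GC box was present in 12 of the 19 windows of the 10 genes and in 35.7% of all windows. The E-box CACGTG, which reads the same on both strands, was present in the Dnmt3a and Dnmt3l windows and in the Tdg window, 3 of 19, against 7.15% of all windows. A TATA box (TATAAA on either strand) was present in 1 of the 19, at Zfp57, and in 13.6% of all windows. The table gives expression per gene, so which start was used was not measured.

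All 10 genes were above 0 in every library and passed the filter on low values, with 375 reads for Tdg at the lowest and 60521 for Trim28 at the highest. Averaged over the 10 libraries, Trim28 had the highest level (8.79 ± 0.16, SD, n = 10), followed by Uhrf1 (6.78 ± 0.13), Dnmt1 (6.11 ± 0.221), Zfp57 (6.02 ± 0.25), Tet1 (5.24 ± 0.402), Dnmt3b (4.63 ± 0.444), Dnmt3l (4.55 ± 0.422), Tet2 (4.31 ± 0.366), Dnmt3a (2.87 ± 0.269) and Tdg (1.85 ± 0.136). Neighbours in this order were separated in all 10 libraries, except that Dnmt1 was above Zfp57 in 7, Dnmt3b above Dnmt3l in 7, and Dnmt3l above Tet2 in 5. These levels are per length of the feature as recovered from the table, and for Tet2 that length (9179 bases) was well under the 16870 bases of merged exons in GENCODE.

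**Figure D1:**
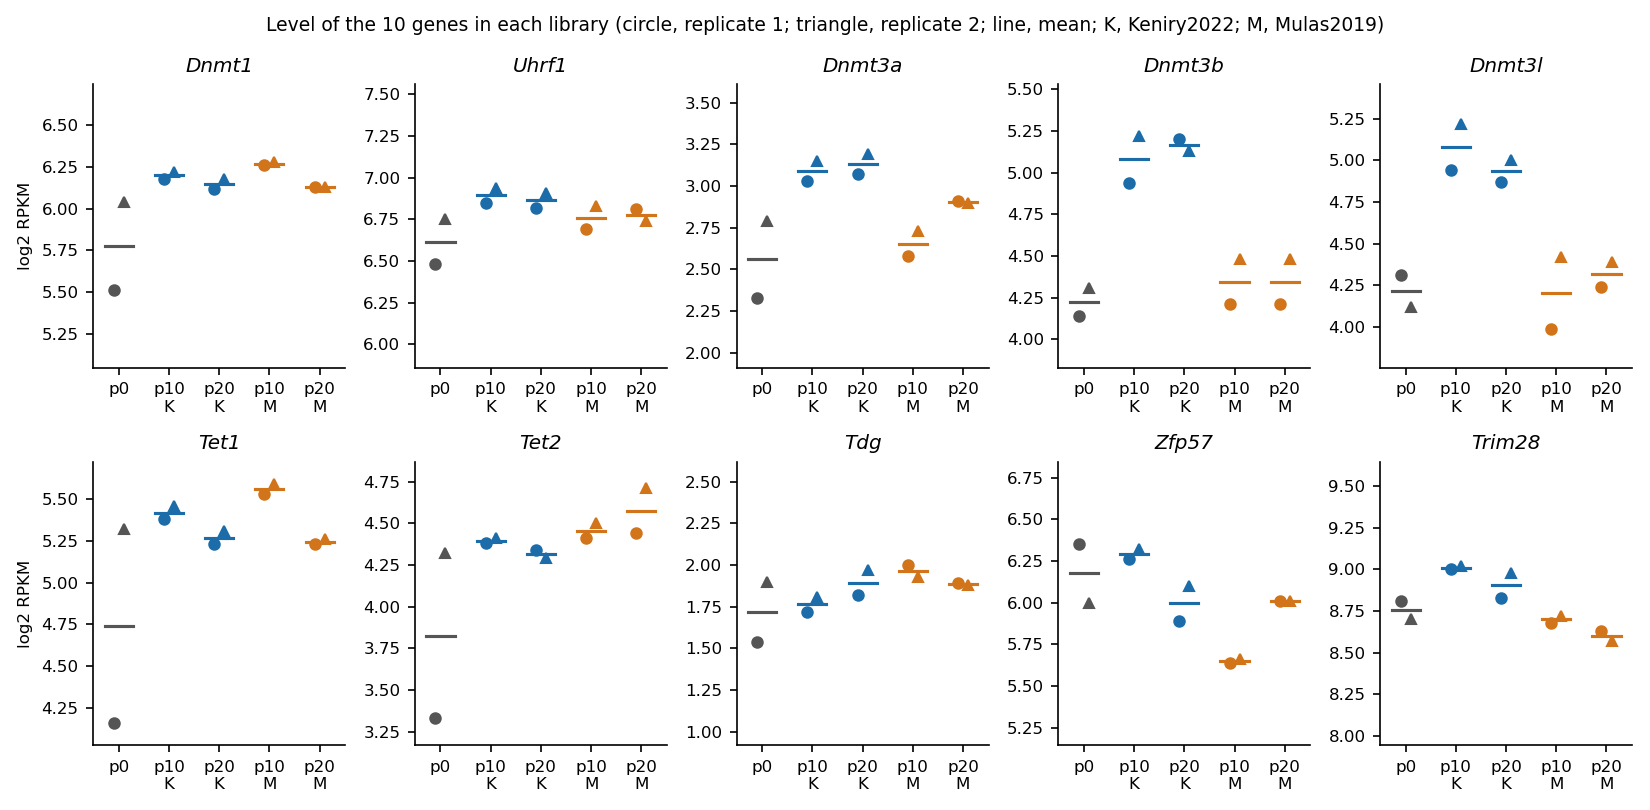
Level in log2 RPKM (vertical axis, of the same span in every panel) of each of the 10 genes in the 5 groups (horizontal axis), with replicate 1 as a circle, replicate 2 as a triangle and their mean as a line. The Dnmt3b and Dnmt3l points of the 4 Keniry2022 libraries (4.87 to 5.22) lie above every p0 and Mulas2019 point (3.99 to 4.48), and the circles of p0 lie low for Tet1 (4.16) and Tet2 (3.33).

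The first question was whether the methylation machinery differed between the 2 culture methods after p0. With p10 and p20 pooled, as the study pooled them (4 libraries per method), 6 of the 10 genes were higher under Keniry2022 and 0 were lower by limma at an adjusted p below 0.05. Over all 11654 features tested in that comparison, 51.5% were called, 25.9% as higher and 25.5% as lower. The split of the 10 genes was 4 higher and 2 lower after quantile normalisation and 5 higher and 1 lower with voom on recovered reads. The 6 were Dnmt3b, Dnmt3l, Dnmt3a, Trim28, Zfp57 and Uhrf1. The median log2 difference was 0.21 over the 10 genes and 0.00 over all features tested. Dnmt1, Tet1, Tet2 and Tdg were not called. In 5 of the 10 genes the 4 libraries of one method did not overlap the 4 of the other (Dnmt3a, Dnmt3b, Dnmt3l and Trim28 above under Keniry2022 and Tet2 below), against 46.5% of all features tested, 23.1% above and 23.4% below.

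**Figure D2:**
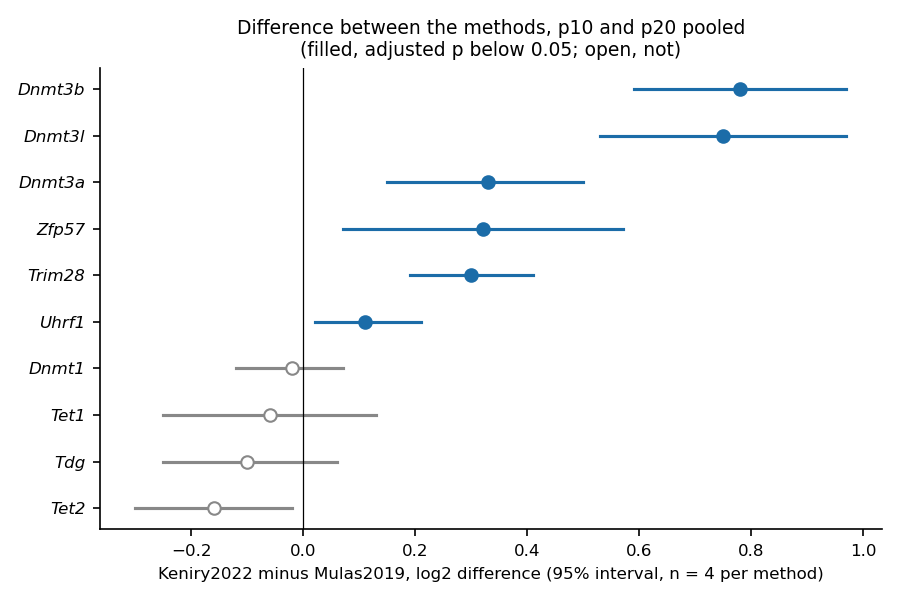
Log2 difference, Keniry2022 minus Mulas2019 (horizontal axis), of each of the 10 genes with p10 and p20 pooled, n = 4 libraries per method, as points with 95% intervals from the limma fit. Dnmt3b (0.78) and Dnmt3l (0.75) stand apart from the other 8 genes, which lie between -0.16 and 0.33.

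Among the de novo genes, Dnmt3b, the main de novo methyltransferase of the early epiblast, stood at 4.94 and 5.22 in the p10 Keniry2022 libraries and at 5.20 and 5.13 at p20. Under Mulas2019 it stood at 4.21 and 4.48 at p10 and at 4.21 and 4.48 at p20. Every Keniry2022 library was thus above every Mulas2019 library, with a gap between the groups larger than the spread inside either. The means were 5.12 ± 0.127 and 4.34 ± 0.16 (SD, n = 4 each), a log2 difference of 0.78 (SE 0.0838, 95% interval 0.59 to 0.97, adjusted p = 0.0001), or 1.72-fold.

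Dnmt3l, which has no catalytic activity and stimulates Dnmt3a and Dnmt3b, followed the same order. Its levels were 4.94, 5.22, 4.87 and 5.0 in the p10 and p20 Keniry2022 libraries and 3.99, 4.42, 4.24 and 4.39 in those of Mulas2019. Again no library of one method reached the range of the other. The means of 5.01 ± 0.149 and 4.26 ± 0.199 (SD, n = 4 each) gave a log2 difference of 0.75 (SE 0.10, 95% interval 0.53 to 0.97, adjusted p = 0.00027), or 1.68-fold. Dnmt3l shares 67 exon bases with Aire on the opposite strand, and the strand setting of the counting is not given in the sources used here. Aire itself was between 1.99 and 2.39 under Keniry2022 and between 2.78 and 3.31 under Mulas2019, the opposite order to Dnmt3l.

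Dnmt3a, whose shorter isoform from an internal start is known to prevail in mESCs, was at a lower level than the other Dnmt3 genes throughout. It measured 3.03 and 3.15 at p10 and 3.07 and 3.19 at p20 under Keniry2022, against 2.58 and 2.73 at p10 and 2.91 and 2.90 at p20 under Mulas2019. The groups did not overlap, but the p20 Mulas2019 libraries came closer to the Keniry2022 range than those of p10. The log2 difference was 0.33 (SE 0.0776, 95% interval 0.15 to 0.50, adjusted p = 0.00582), or 1.25-fold. It was 0.59 after a correction for length and GC content, and the call was lost in the model of all 10 libraries (adjusted p = 0.0678).

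The partners of maintenance methylation moved little. Dnmt1, the maintenance methyltransferase, measured 6.18, 6.22, 6.12 and 6.18 under Keniry2022 and 6.26, 6.28, 6.13 and 6.13 under Mulas2019, with overlapping ranges. Its log2 difference was -0.02 (95% interval -0.12 to 0.07, adjusted p = 0.682), but the sign depended on the scaling: it was -0.16 and called lower after quantile normalisation (adjusted p = 0.0126), and 0.14 and called higher after the length and GC correction (adjusted p = 0.0224). Uhrf1, which recruits Dnmt1 to half-methylated DNA, measured 6.85, 6.94, 6.82 and 6.91 under Keniry2022 and 6.69, 6.83, 6.81 and 6.74 under Mulas2019. Only the Mulas2019 library at 6.83 reached into the Keniry2022 range, and the log2 difference of 0.11 (SE 0.0414, 95% interval 0.02 to 0.21) was called at adjusted p = 0.0412. That call was lost without either p10 Keniry2022 library, without p20 Keniry2022 replicate 2, without p10 Mulas2019 replicate 1 and without p20 Mulas2019 replicate 2 (adjusted p = 0.0574 to 0.119). It was also lost with voom on recovered reads (0.08, adjusted p = 0.121), without a filter (adjusted p = 0.0595), in the model of all 10 libraries (adjusted p = 0.317) and with a replicate block in which the p20 Keniry2022 numbers were exchanged, an alternative chosen after seeing the data (adjusted p = 0.0562), and quantile normalisation gave -0.02.

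The oxidation and excision genes did not pass the test. Tet1, the most abundant Tet enzyme in mESCs, measured 5.38, 5.46, 5.23 and 5.31 under Keniry2022 and 5.53, 5.59, 5.23 and 5.26 under Mulas2019, where the p10 libraries of each method were above its p20 libraries. The log2 difference was -0.06 (95% interval -0.25 to 0.13, adjusted p = 0.578), with the sign turned by the length and GC correction (0.06). Tet2 measured 4.38, 4.41, 4.34 and 4.29 under Keniry2022 and 4.41, 4.50, 4.44 and 4.71 under Mulas2019. The ranges met at 4.41 without overlapping, and the log2 difference of -0.16 (95% interval -0.30 to -0.02) had an adjusted p of 0.0557. It was called lower after quantile normalisation (-0.21, adjusted p = 0.0248), with voom on recovered reads (-0.19, adjusted p = 0.0216), with the exchanged replicate block (-0.16, adjusted p = 0.0399), without p10 Mulas2019 replicate 1 (-0.19, adjusted p = 0.0324) and without p20 Mulas2019 replicate 1 (-0.19, adjusted p = 0.048), and was -0.04 after the length and GC correction. Tdg, the glycosylase, measured 1.72 to 1.97 under Keniry2022 and 1.88 to 2.00 under Mulas2019, with overlap and a log2 difference of -0.10 (95% interval -0.25 to 0.06, adjusted p = 0.263) that quantile normalisation turned to 0.01.

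Both genes of imprint protection were higher under Keniry2022, in different ways. Trim28, the scaffold that brings silencing enzymes to zinc finger proteins, measured 9.0 and 9.02 at p10 and 8.83 and 8.98 at p20 under Keniry2022, and 8.68, 8.72, 8.63 and 8.57 under Mulas2019. The ranges did not overlap, and the log2 difference of 0.30 (SE 0.0496, 95% interval 0.19 to 0.41, adjusted p = 0.00075), or 1.24-fold, was called under every alternative tried, from 0.16 after quantile normalisation to 0.41 after the length and GC correction. Zfp57, the zinc finger protein that binds methylated imprinting control regions, measured 6.26 and 6.32 at p10 and 5.89 and 6.10 at p20 under Keniry2022. Under Mulas2019 it measured 5.64 and 5.66 at p10 and 6.01 and 6.01 at p20. The p20 libraries of the methods overlapped and the p10 libraries did not. Its pooled log2 difference was 0.32 (SE 0.112, 95% interval 0.07 to 0.57, adjusted p = 0.0369). That call was lost after quantile normalisation (0.19, adjusted p = 0.21) and without a filter (0.32, adjusted p = 0.0694). It was also lost without either p10 Keniry2022 library, either p10 Mulas2019 library or p20 Keniry2022 replicate 2 (adjusted p = 0.059 to 0.101).

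**Figure D3:**
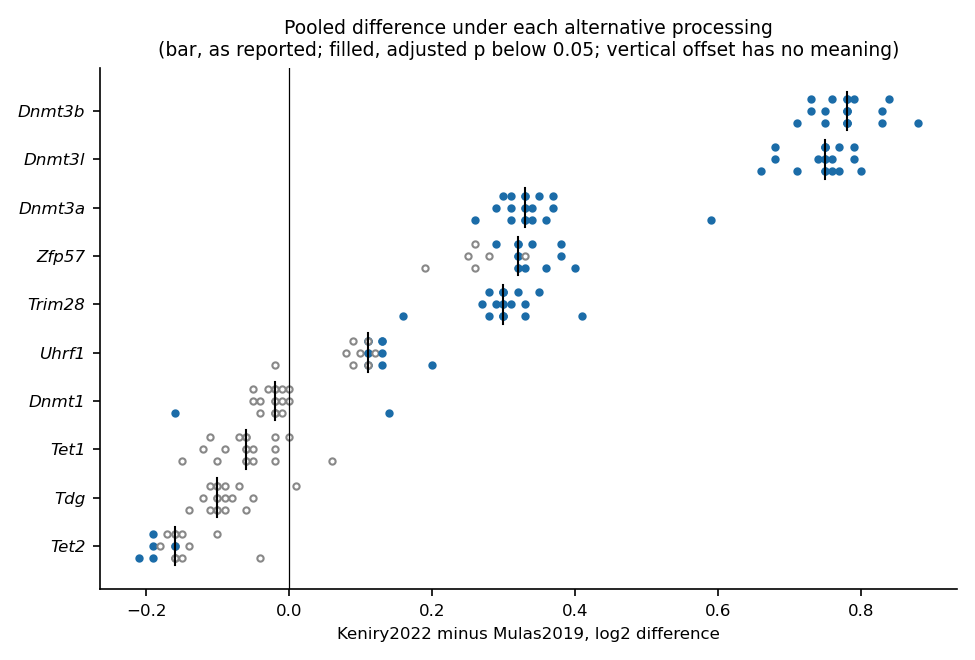
Log2 difference in the pooled comparison (horizontal axis) of each of the 10 genes under the alternative ways of processing, 1 point per alternative and filled where called, with a bar at the value reported above. Dnmt3b (0.71 to 0.88), Dnmt3l (0.66 to 0.80) and Trim28 (0.16 to 0.41) are called under all 19 alternatives, and Dnmt1 falls on both sides of 0.

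Differences between genes of the set within a library are not changed by a single scaling factor per library, and are given as a description. Quantile normalisation and the length and GC correction shift genes by different amounts, and these differences were not recomputed under them. Quantile normalisation moved the pooled difference of Dnmt3b from 0.78 to 0.71 and that of Dnmt1 from -0.02 to -0.16. Dnmt3b minus Dnmt1 lay between -1.23 and -0.93 in the Keniry2022 libraries and between -2.05 and -1.64 in the Mulas2019 libraries, with p0 at -1.37 and -1.73. Dnmt3l minus Dnmt1 lay between -1.26 and -1.0 and between -2.27 and -1.73, with p0 replicate 1 at -1.2, inside the Keniry2022 range, and replicate 2 at -1.92, inside the Mulas2019 range. The de novo genes therefore stood closer to Dnmt1 in each Keniry2022 library than in any Mulas2019 library. Dnmt3b minus Dnmt3l averaged 0.12 under Keniry2022 and 0.08 under Mulas2019, and its ranges overlapped (0.00 to 0.33 and -0.03 to 0.22).

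The methods were then compared at each passage and at matched days, in a model of all 10 libraries with 5 groups. At p10, Dnmt3b (0.74, adjusted p = 0.0258), Dnmt3l (0.88, adjusted p = 0.0206) and Zfp57 (0.65, adjusted p = 0.023) were higher under Keniry2022, 3 of the 10 genes against 8.53% of 11561 features called (3.76% as higher). At p20, Dnmt3b (0.82, adjusted p = 0.0373) was called, 1 of 10 against 2.15% of features (0.614% as higher), while Dnmt3l (0.62, adjusted p = 0.0952) and Trim28 (0.30, adjusted p = 0.118) were not. In p20 Keniry2022 against p10 Mulas2019, the groups matched in days, Dnmt3b (0.82, adjusted p = 0.0244) and Dnmt3l (0.73, adjusted p = 0.041) were called, 2 of 10 against 6.43% of features (2.84% as higher). The last comparison reuses the p20 Keniry2022 and p10 Mulas2019 libraries of the other two, so the calls of Dnmt3b, with differences of 0.74 to 0.82, are not independent. The call of Dnmt3l at matched days was lost with the exchanged replicate block (adjusted p = 0.0535). Zfp57 differed by 0.65 at p10 and by -0.01 at p20 (95% interval -0.30 to 0.27, adjusted p = 0.972), and its sign at p20 turned with median centring (0.01). The test of that change between passages gave -0.66 (95% interval -1.06 to -0.25), with an unadjusted p of 0.00567 and an adjusted p of 1.

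These calls depended on which libraries were in the fit. With p0 left out, the same differences at p10 were called in 6 of 10 genes (Dnmt3a, Dnmt3b, Dnmt3l, Trim28 and Zfp57 higher, Tet1 lower) against 48.3% of features, and at p20 in 4 (Dnmt3b, Dnmt3l and Trim28 higher, Tet2 lower) against 36.7%. At matched days 7 of 10 were then called (Dnmt3a, Dnmt3b, Dnmt3l, Trim28 and Zfp57 higher, Dnmt1 and Tet1 lower) against 43.4%. With p0 kept, leaving out 1 library leaves a group of 1 library in the fit. The Dnmt3b call was then lost without any 1 of 6 libraries at p10 (all except those of p0 and p20 Mulas2019). It was also lost without any 1 of the 8 libraries other than p0 at p20, and any 1 of 6 at matched days (all except p0 and p10 Keniry2022). Each of these fits called fewer features than the same comparison with all 10 libraries, so the losses were not particular to Dnmt3b. The log2 difference of Dnmt3b in these fits stayed between 0.60 and 0.96. The Dnmt3l call at p10 was lost without either p10 Keniry2022 library or p10 Mulas2019 replicate 1 (log2 difference 0.66 to 1.01). At matched days it was lost without any 1 of the 8 libraries other than p0. The Zfp57 call at p10 was lost without any 1 of the p10 libraries or the p20 Mulas2019 libraries (log2 difference 0.62 to 0.68). Fewer features were called in all of these fits too.

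A further question was where each method stood against the cells at p0. Both comparisons use the same p0 libraries and so are not independent. Dnmt3b stood at 4.14 and 4.31 in p0, and Dnmt3l at 4.31 and 4.12, inside or close to the Mulas2019 ranges and below all 4 Keniry2022 libraries. Against p0, Dnmt3b was higher under Keniry2022 by 0.90 (SE 0.127, 95% interval 0.61 to 1.2, adjusted p = 0.0345), or 1.87-fold, 1 of 10 genes against 0.727% of features (0.199% as higher). Dnmt3l differed by 0.79 (95% interval 0.47 to 1.12, adjusted p = 0.0516) and Dnmt3a by 0.55 (95% interval 0.25 to 0.85, adjusted p = 0.0715), without passing. The value of Dnmt3a was 0.07 after the length and GC correction, 0.32 without p0 replicate 1 and 0.78, and called, without p0 replicate 2 (adjusted p = 6.92e-05), and Dnmt3l was called without either p0 library (adjusted p = 0.0234 and 0.00395). Under Mulas2019 the differences from p0 were 0.12 for Dnmt3b (95% interval -0.17 to 0.41) and 0.05 for Dnmt3l (95% interval -0.28 to 0.37), neither called and both with a sign that depended on the processing. The call of Dnmt3b against p0 was lost without any 1 of the 8 libraries other than p0 (0.83 to 0.97). Each of these fits left a group of 1 library and called fewer features than the fit of all 10 libraries. The call was also lost with the stricter filter and with library quality weights, where 19 and 0 features were called, against 84 as reported.

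Under Mulas2019, Dnmt1 (0.43, adjusted p = 0.0342) and Tet2 (0.69, adjusted p = 0.0451) were higher than in p0 and Zfp57 (-0.35, adjusted p = 0.0332) was lower, 3 of 10 genes against 44.1% of features, 22.0% as higher and 22.0% as lower. After the length and GC correction Dnmt1 was at 0.07 (adjusted p = 0.458) and Tet2 at 0.14 (adjusted p = 0.228), and 0 genes were higher and 3 lower, while Zfp57 was at -0.10 after quantile normalisation (adjusted p = 0.327). The p0 libraries themselves were far apart in several of the 10 genes. Tet1 measured 4.16 in p0 replicate 1 and 5.32 in replicate 2, and Tet2 measured 3.33 and 4.32, and for both genes replicate 2 stood inside the range of the later libraries and replicate 1 below all of them. Dnmt1 measured 5.51 and 6.04 and Zfp57 measured 6.35 and 6.0. In all, 7 of the 10 genes were lower in p0 replicate 1 than in replicate 2 and 3 were higher (Dnmt3l, Zfp57 and Trim28). Without p0 replicate 1 the differences from p0 under Mulas2019 were 0.16 for Dnmt1 (adjusted p = 0.0213), 0.20 for Tet2 (adjusted p = 0.12) and -0.17 for Zfp57 (adjusted p = 0.0797), and without p0 replicate 2 they were 0.69, 1.19 and -0.52. The calls of Dnmt1 and Tet2 were also lost without any 1 of the other 8 libraries, and that of Zfp57 without any 1 of these except the p20 Keniry2022 libraries. Each of these fits left a group of 1 library and called fewer features than the 5093 of the fit of all 10 libraries.

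**Figure D4:**
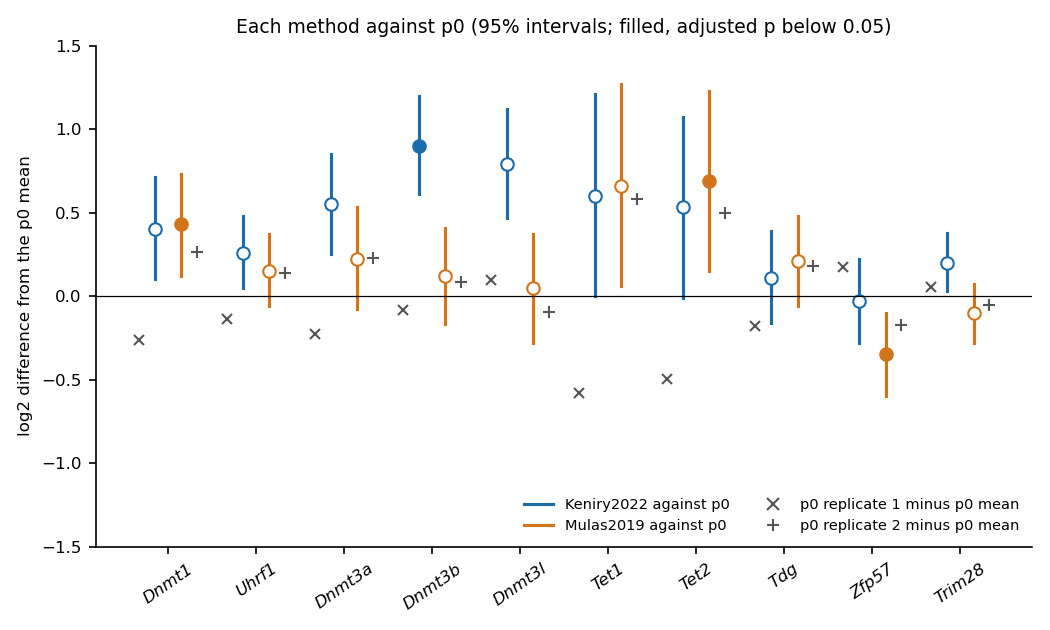
Log2 difference from the p0 mean (vertical axis) for each of the 10 genes, as points with 95% intervals for Keniry2022 and Mulas2019 (n = 4 libraries each), filled where called, with the p0 replicates as crosses and plus signs. Dnmt3b (0.90 and 0.12) and Dnmt3l (0.79 and 0.05) differ between the methods, while for Tet1 and Tet2 the p0 replicates lie far apart and the intervals are wide.

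Between p10 and p20 within a method, 0 of the 10 genes and 0 of 11561 features (0.0%) were called by limma under Keniry2022 (289 features at an unadjusted p below 0.05), and likewise 0 under Mulas2019 (772 features). With voom on recovered reads the counts over all features were 0 and 1. Zfp57 differed by -0.30 under Keniry2022 (95% interval -0.58 to -0.01, adjusted p = 1) and by 0.36 under Mulas2019 (95% interval 0.07 to 0.65, adjusted p = 0.582), neither passing. For the method by passage interaction, 0 features were called by limma (405 at an unadjusted p below 0.05) and 0 by voom. Without p0 in the fit the Mulas2019 change of Zfp57 was called (adjusted p = 0.0386), with Tet1 lower (2 of 10 genes against 2.47% of features).

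Genes whose levels ran most like these across the 10 libraries were found by Pearson r over 6191 features with a mean of at least 3, as a description. Nearest to Dnmt3b were Odc1 (r = 0.966), Thoc3 (0.965) and L3mbtl2 (0.963), and nearest to Dnmt3l were Lin28a (0.954), Prmt5 (0.953) and Pfkm (0.944). Nearest to Dnmt3a were Spop (0.988), B4galt6 (0.984) and Adam9 (0.978), and nearest to Zfp57 were H2-M5 (0.958), Slc25a20 (0.955) and Gcdh (0.947). Among the 10 genes themselves, Dnmt3b and Dnmt3l ran together (r = 0.946), as did Dnmt1 with Tet1 (0.982) and Tet2 (0.912). Uhrf1 with Dnmt3a (0.923) and Tet1 with Tet2 (0.905) did so too. Dnmt1, Tet1, Tet2, Uhrf1, Dnmt3a, Dnmt3b and Tdg were all at their lowest in p0 replicate 1. The points share libraries and their scaling, and 654 features had an r above 0.9 with Dnmt1 against 29 with Dnmt3b and 24 with Dnmt3l.

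The wider pathway was followed through 66 partner genes in 6 groups, of which 59 were tested in the pooled comparison. Of these, 11 were higher and 14 lower under Keniry2022 and 34 were not called, which is 42.4% called, below the 51.5% of all features, with a median log2 difference of -0.04. Of the 8 tested partners of de novo methylation 0 were called by limma (1 at an unadjusted p below 0.05, the only tool run on the partners), and their median was -0.01, while Dnmt3a, Dnmt3b and Dnmt3l were higher. Among them Prdm14, a repressor of Dnmt3 genes in naive cells, measured 4.43 to 4.64 under Keniry2022 and 4.41 to 4.48 under Mulas2019, a log2 difference of 0.11 (95% interval 0.00 to 0.23, adjusted p = 0.0821). Of 8 maintenance partners 3 were higher and 1 lower. Hells, the chromatin remodeller of heterochromatin methylation, measured 6.61 to 6.68 against 6.22 to 6.34 (0.38, adjusted p = 5.89e-05), while Dppa3, which binds and displaces Uhrf1, ranged from 5.34 to 5.90 against 4.96 to 6.17 and differed by 0.00 (95% interval -0.50 to 0.51, adjusted p = 0.987).

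Among 17 tested partners of oxidation and base excision, 2 were higher and 6 lower under Keniry2022, which is 47.1% called against 51.5% of all features, with a median of -0.15. Tet3, the Tet enzyme of the oocyte and zygote, was near the limit of the filter at 0.00, -0.20, 0.12 and 0.10 under Keniry2022 and higher, at 0.90, 0.82, 0.88 and 0.70, under Mulas2019 (log2 difference -0.82, adjusted p = 0.000275), with p0 at -1.19 and -0.27. The glycosylase Neil2 (-0.95, adjusted p = 0.000139), the cytidine deaminase Apobec1 (-0.84, adjusted p = 0.000216) and the thymine glycosylase Mbd4 (-0.29, adjusted p = 0.0034) were lower. Neil2 (0.06 to 0.21) and Apobec1 (0.34 to 0.7) were also near the limit of the filter under Keniry2022. The abasic endonuclease Apex1 (0.55, adjusted p = 3.56e-05) and the uracil glycosylase Ung (0.34, adjusted p = 0.00145) were higher. Tet1, Tet2 and Tdg, with which these partners act, were not called.

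In the remaining groups the calls went both ways except among methyl-CpG readers. Of 6 tested readers 3 were lower and 0 higher, with a median of -0.24, including Zbtb38 (-0.39, adjusted p = 0.00104). The share of readers called was just below that of all features (51.5%, with 25.9% as higher and 25.5% as lower). Whether the direction of the reader calls differs from that of all features was not tested. Of 9 tested partners of imprint protection and KAP1, 2 were higher and 2 lower (44.4% called). Atrx, a remodeller of silent chromatin, was higher (0.35, adjusted p = 0.000736), Zfp445, a zinc finger protein of imprinted regions, was lower (-0.20, adjusted p = 0.0104), and Setdb1, the histone methyltransferase that Trim28 recruits, was not called (0.07, 95% interval -0.08 to 0.21, adjusted p = 0.403). Zfp445 measured 1.15 in p0 replicate 1 and 4.05 in replicate 2. Of 11 tested genes listed under supply of the methyl donor or alpha-ketoglutarate, 4 were higher and 2 lower (54.5% called). Among them were Idh1 (0.28, adjusted p = 0.00019) and Ahcyl2 (-0.31, adjusted p = 0.00261). Being listed does not mean that a gene supplies either one.

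**Figure D5:**
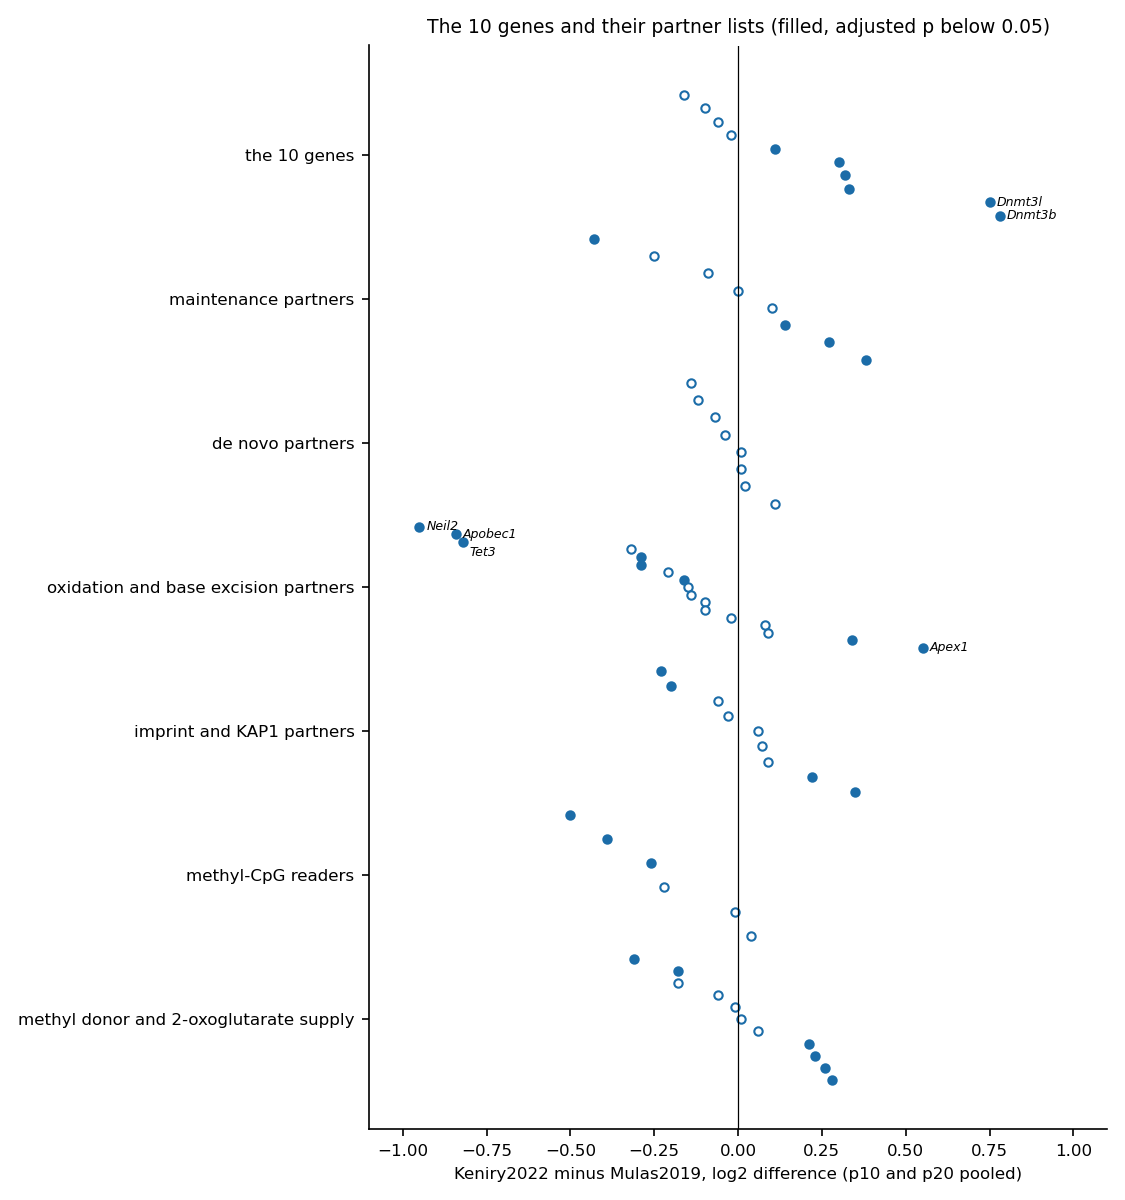
Log2 difference, Keniry2022 minus Mulas2019 with p10 and p20 pooled (horizontal axis), of the 10 genes and of the tested partners in 6 groups (vertical axis), 1 point per gene and filled where called. The 8 de novo partners lie between -0.14 and 0.11, while Dnmt3b (0.78) and Dnmt3l (0.75) lie to the right of all partner genes.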

How the data were processed

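The authors deposited 1 table of log2 values for 25965 features and 10 libraries. Single-end reads had been trimmed, aligned to mm10 and quantified in SeqMonk. For the aligner the study names HISAT2 and the submitters' processing notes TopHat2 2.0.12, a difference that could not be resolved. Sources used here do not give the strand setting or annotation release. The authors call the deposited log2 values log CPM or RPM, but a feature without reads (entered as 0.9 reads) takes a value that depends on its length, so the unit is log2 RPKM. Totals of 24053996 to 30236823 reads per library, and reads per feature, were worked out from these floors and from GENCODE M21 exon lengths. Lengths of the 10 genes come from a search for lengths giving whole reads within 0.1 reads, a search that can satisfy more than 1 length. Intervals cover the spread between libraries.

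Differences between groups of log2 values were tested with limma 3.58.1 under R 4.3.3 (lmFit, eBayes with trend, two-sided). P-values were adjusted by Benjamini-Hochberg across every tested feature, and a feature was called at an adjusted p below 0.05. limma took the place of the study's voom fit because the table holds log2 values. Features had to exceed 0 in 50% or more of a fit's libraries. The method comparison pooled p10 and p20 (8 libraries, 2 groups), and the other comparisons used 1 model of 10 libraries and 5 groups. Fits were also run on simulated data with independent noise in each library, the same spread in every group and no effect of line. That run cannot tell how the shared lines or the wider p0 spread affect the p-values. Alternatives were quantile normalisation, median centring, no filter, a filter above 2, voom on recovered reads, library quality weights, a length and GC correction, a replicate block, passage as a term, a model of 10 libraries for the pooled comparison, p0 left out, and each library left out. Groups came from the labels.

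Replicate numbers are shared between groups, and the study carried 2 lines. Over 11561 features the difference between replicates 2 and 1 correlated between groups at 0.171 to 0.63 without p20 Keniry2022. With it the correlations were -0.698 to -0.118, so the numbers do not mark the lines throughout. The Y-linked reads were low in replicate 2 of p20 Keniry2022 and in replicate 1 of the other groups. A block with the p20 Keniry2022 numbers exchanged follows these reads. The reported fits have no block and leave the pairing of the lines unused. With the exchanged block in limma, the pooled call of Uhrf1 was lost (adjusted p = 0.0562) and Tet2 was called lower (adjusted p = 0.0399).

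All 10 genes are named. The members and the partner lists were chosen with earlier results of these data known. From the partners, 6 genes were named in advance (Dppa3, Prdm14, Tet3, Hells, Zfp445, Setdb1), and with them the 12 with the largest called difference and no overlap between the methods, of which 1 is not reported here. Of 66 partner names, 3 did not match exactly 1 feature. For likeness, the 3 features with the highest r are given for the 4 genes with the largest pooled difference.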

Additional observations from a re-analysis of the deposited data

How the results depend on the processing

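Of 660 alternative values of the single gene differences, 508 kept their direction and side of the threshold, 99 lost the call, 40 gained one and 13 changed sign. In the pooled comparison the number of the 10 genes called was 4 to 7 in all fits, and 4 to 7 when 1 library was left out, with 5049 to 5659 of all features called. The split was 4 higher and 2 lower after quantile normalisation, 5 and 1 with voom, and 7 and 0 after the length and GC correction. The model of 10 libraries called 2225 features. The cause was not tested except where p0 was left out, which removes the widest pair of libraries.

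The number of genes called moved as follows, with the number of all features called in the same fit in brackets. In these comparisons a fit with 1 library left out holds a group of 1 library. Over such fits both numbers moved widely, except for the interaction, and they are not given. At p10 it was 3 as reported (986 features) and 6 with p0 left out (5631). It was 5 with library quality weights (5880) and with the length and GC correction (1661). At p20 it was 1 as reported (249 features) and 0 with the stricter filter (95). It was 3 with library quality weights (4079), and 4 with the length and GC correction (662) and with p0 left out (4280). At matched days it was 2 as reported (743 features), and 1 without a filter (839) and with the stricter filter (353). It was 6 with library quality weights (4623), 4 with the length and GC correction (1196) and 7 with p0 left out (5060). For Keniry2022 against p0 it was 2 after quantile normalisation and the length and GC correction, 0 with the stricter filter and library quality weights, and 0 to 9 with 1 library left out. For Mulas2019 against p0 it was 5 after quantile normalisation, 0 with library quality weights, 3 with the length and GC correction but with 0 higher and 3 lower (2 higher and 1 lower as reported), and 0 to 8 with 1 library left out. Between passages under Mulas2019 it was 0 as reported (0 features), and 2 with library quality weights (512) and with p0 left out (288). For the interaction it was 1 with library quality weights (Zfp57, 72 features).

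Signs changed in values near 0. In the pooled comparison Uhrf1 was -0.02 and Tdg 0.01 after quantile normalisation, Dnmt1 was 0.14 and Tet1 0.06 after the length and GC correction, and with 1 library left out Dnmt1 ran from -0.05 to 0.00 and Tet1 from -0.12 to 0.00. Zfp57 at p20 was 0.01 after median centring, 0.02 after the length and GC correction and -0.11 to 0.09 with 1 library left out, the last without p20 Keniry2022 replicate 1. Under Mulas2019 against p0, Dnmt3b was -0.05 after the length and GC correction, and Dnmt3l was 0.00 after median centring, -0.05 without p0 replicate 2, and -0.06 (without p10 Mulas2019 replicate 2) to 0.15 over the fits with 1 library left out.

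With the replicate block, 6 of the 10 genes were called in the pooled comparison, 3 at p10, 1 at p20, 2 at matched days, 2 for Keniry2022 against p0 and 3 for Mulas2019 against p0, with 5749 features called in the pooled comparison. With the p20 Keniry2022 numbers exchanged, an alternative chosen after seeing the data, the block gave 6, 3, 1, 1, 1 and 3. The 6 were 5 higher and 1 lower, as the call of Uhrf1 was lost and Tet2 was called lower, and at matched days the call of Dnmt3l was lost.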
